A study of Mus musculus with 6 samples.

Results

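Fragments of the nuclear-encoded threonine tRNAs (tRNA-Thr) were described in cultured primary smooth muscle cells of the mouse pulmonary artery, which contract the vessel wall. They were taken as every sequence of the deposited tRNA fragment table whose annotations all name mature-tRNA-Thr-AGT, mature-tRNA-Thr-CGT or mature-tRNA-Thr-TGT. This gave 1322 of 38798 sequences and 53250 of 8966706 counts, or 0.594% of the counts. A further 2 sequences, with 1 count each, shared an annotation with another family and were left out. The groups were 3 libraries of wild type cells kept at 3% O2 for 24 h (hypoxia) and 3 libraries of wild type cells in normoxia; the series' design calls the 3 of each group biological replicates. Before cloning, RNA modifications that would stop the adapters or the copying enzyme were taken off with enzymes (Pandora-seq). The table holds tRNA fragments of 15 to 45 nt, so that no marker of the cell type could be read from it.

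The fragment libraries differed in depth and in make-up. Hypoxia libraries 1, 2 and 3 held 510519, 2563749 and 1713960 counts, of which tRNA-Thr took 8242, 12987 and 7227. Normoxia libraries 1, 2 and 3 held 330787, 2217965 and 1629726 counts, of which tRNA-Thr took 5727, 10061 and 9006. The library numbered 1 of each group was the shallowest and stood apart in most tRNA-Thr measures. Values below are counts per 1000000 counts of the table (CPM), and 1 count was worth 0.390 to 3.02 CPM. These are shares of the tRNA fragments in bulk cultures, so a cell number and an RNA amount per cell cannot be told apart in them.

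Threonine tRNAs carry threonine to the ribosome. The anticodon base that pairs with the last codon base sets the codons each one can read. Those of AGT, whose A is converted to inosine, include ACT and ACC. Those of TGT include ACA, and CGT reads ACG. The CCA tail, added after transcription, is where the amino acid is attached. Eukaryotic tRNA-Thr is known to carry 3-methylcytidine in the anticodon loop and a threonylcarbamoyl adenosine beside the anticodon, and most tRNAs carry 1-methyladenosine at position 58 of the T loop, which can stop reverse transcriptase. Angiogenin, a nuclease released in stress, is known to cut tRNAs in the anticodon loop. Fragments that begin at the tRNA's first base, that lie inside it, or that end at its last base, with or without CCA, are given as separate classes by the suffix of the annotation.

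The mouse reference annotation (RefSeq, GRCm38.p6) holds 17 tRNA-Thr genes on 5 chromosomes, 9 for AGT, 4 for CGT and 4 for TGT. Examples are n-TTagt5 (AGT) on chromosome 11 at 69110465 to 69110538, n-TTcgt3 (CGT) on chromosome 11 at 79704650 to 79704721, n-TTtgt1 (TGT) on chromosome 14 at 51088650 to 51088722, and n-TTtgt4 (TGT) on chromosome 13 at 21275956 to 21276029. A fragment that several copies encode cannot be placed in one of them. Overlapping fragments of the table were therefore joined into whole tRNAs, which gives a frame for the fragments and is not a read of one molecule. One joined form is shown for each anticodon and gene length that could be joined, because the fragment ends described here are read against them. Capitals mark the anticodon and the base at position 58, in the standard numbering that gives the last encoded base 73 and the CCA tail 74 to 76.
AGT, 74 nt: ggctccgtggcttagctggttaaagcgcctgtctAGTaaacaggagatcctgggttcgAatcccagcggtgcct
CGT, 72 nt: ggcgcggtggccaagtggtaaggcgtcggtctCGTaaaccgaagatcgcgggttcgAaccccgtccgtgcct
TGT, 73 nt: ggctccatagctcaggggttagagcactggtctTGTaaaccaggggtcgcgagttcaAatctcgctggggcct
TGT, 74 nt: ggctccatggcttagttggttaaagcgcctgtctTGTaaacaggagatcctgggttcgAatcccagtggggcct
The 74 nt AGT form held 89.2% of the counts assigned to that anticodon, and the 72 nt CGT form held 62.8% of those assigned to CGT. Each form shown is the join that held the most counts for its anticodon and length. Other AGT joins, with G at position 69, held up to 81.8%, and those with other first bases up to 79.0%. The first and last bases printed together for AGT therefore need not come from one gene. The 73 nt and 74 nt TGT forms held 48.1% and 50.1% of the counts assigned to TGT, with shared counts entering both. The stretch from the anticodon stem to the T loop is the same in the 74 nt AGT and TGT forms. Of the 1322 sequences, 1274 with 99.8% of the counts could be placed. They were placed on the joined forms or on single 3' end fragments without CCA, to which the tail was added. The 74 nt CGT genes, such as n-TTcgt2, gave no joined form.

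The most abundant fragments of each class are shown next, since a few sequences make up most of the family. They are not the top of the whole family: internal fragments not printed reached a mean of 354 CPM, above every printed end fragment. Capitals mark positions 54 to 57, the first bases of the T loop, or a CCA tail.
CGT, positions 42 to 57: gaagatcgcgggTTCG
CGT, positions 42 to 56: gaagatcgcgggTTC
AGT/CGT/TGT, positions 41 to 57: aggagatcctgggTTCG
AGT/CGT, 5' end: ggctccgtggcttag
TGT, 5' end: ggctccatagctcagg
TGT, CCA end from position 60: tctcgctggggcctCCA
AGT, CCA end from position 59: atcccagcggggcctCCA
TGT, 3' end from position 35: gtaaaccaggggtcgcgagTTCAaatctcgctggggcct
AGT, 3' end from position 39: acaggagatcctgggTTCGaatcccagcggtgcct
The first sequence alone held 20.4% of all tRNA-Thr counts, and 10 sequences held 50% of them. At the other end, 376 sequences had 1 count in all 6 libraries together.

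The first question was whether tRNA-Thr fragments as a whole were more or less abundant after hypoxia. Summed tRNA-Thr was 16144, 5066 and 4217 CPM in hypoxia libraries 1 to 3, against 17313, 4536 and 5526 CPM in normoxia libraries 1 to 3. Both libraries numbered 1 were the highest of their group, and the groups overlapped. The means were 8476 ± 6655 CPM in hypoxia and 9125 ± 7108 CPM in normoxia (SD, n = 3 each), a log2 ratio of -0.11 with an exact two-sided permutation p = 0.6. The smallest p that 3 against 3 allows is 0.1. Hypoxia over normoxia within the same replicate number was 0.932, 1.12 and 0.763.

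The 4 fragment classes likewise overlapped between the groups. Internal fragments were 79.0% of tRNA-Thr counts (1122 sequences) and measured 6693 ± 5235 CPM in hypoxia and 7492 ± 6240.1 CPM in normoxia (SD, n = 3 each; log2 ratio -0.16; exact permutation p = 0.6). The 5' ends, 75 sequences and 10.7% of the counts, were 1446, 577 and 453 CPM in hypoxia libraries 1 to 3, against 1282, 493 and 741 CPM in normoxia (log2 ratio -0.02; exact permutation p = 1). Hypoxia library 3 was the lowest of the 6 for this class. The CCA ends, 17 sequences and 5.79% of the counts, carry the tail that is charged with threonine. They were 449, 405 and 184 CPM in hypoxia libraries 1 to 3, against 399, 299.8 and 430.1 CPM in normoxia (log2 ratio -0.12; exact permutation p = 0.9). Hypoxia libraries 1 and 2 were among the highest and hypoxia library 3 was the lowest. The 3' ends without CCA, 108 sequences and 4.45% of the counts, were 1518, 178 and 137 CPM in hypoxia, against 943, 141 and 172 CPM in normoxia (log2 ratio 0.54; exact permutation p = 0.7). Their higher hypoxia mean came from library 1, and hypoxia was higher than normoxia in 2 of 3 replicate numbers.

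**Figure D1:**
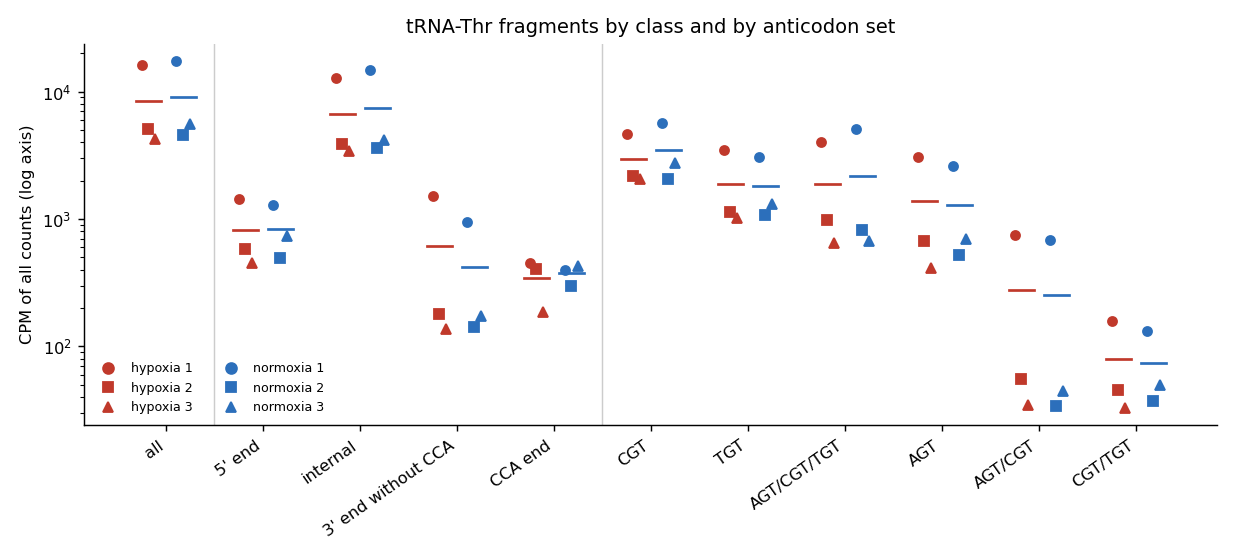
CPM (log axis) of all tRNA-Thr fragments, of the 4 classes and of 6 anticodon sets, by library, with hypoxia in red on the left and normoxia in blue on the right of each pair and horizontal lines at the group means. The libraries numbered 1 (circles) lie highest in most columns, and the groups overlap in every column.

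A fragment was counted under the set of anticodons its annotations name, so that no count was used more than once. CGT alone (mature-tRNA-Thr-CGT) was the largest set with 42.1% of the counts (503 sequences), and was 4676, 2177 and 2064 CPM in hypoxia libraries 1 to 3, against 5726, 2049 and 2754 CPM in normoxia (exact permutation p = 0.7). TGT alone (mature-tRNA-Thr-TGT) held 22.4% (436 sequences) and was 3463, 1137 and 1023 CPM in hypoxia, against 3078, 1065 and 1308 CPM in normoxia (exact permutation p = 0.9). The groups overlapped in both. Fragments common to AGT, CGT and TGT held 19.4% in only 72 sequences, all internal, and were 4057, 981 and 653 CPM in hypoxia, against 5079, 826 and 671 CPM in normoxia (exact permutation p = 0.8). AGT alone (mature-tRNA-Thr-AGT), from the anticodon with the most gene copies, held 13.4% (264 sequences) and was 3046, 669.7 and 409 CPM in hypoxia, against 2612, 522 and 698 CPM in normoxia (exact permutation p = 0.9). The AGT/CGT set rested on the 5' end ggctccgtggcttag and was uneven across replicate numbers. That fragment was 738, 55.4 and 34.4 CPM in hypoxia libraries 1 to 3, against 671, 33.8 and 42.3 CPM in normoxia. The CGT/TGT set held 0.868% of the counts, and the AGT/TGT set 7 counts in 5 sequences. Over the 12 sums tested, the lowest Benjamini-Hochberg adjusted p of the exact permutation tests was 0.982.

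The anticodon sets were made up of different parts of the tRNA. CGT alone consisted almost wholly of internal fragments, which were 27.0%, 42.5% and 48.6% of all tRNA-Thr counts in hypoxia libraries 1 to 3 and 32.1%, 44.7% and 49.2% in normoxia. TGT alone carried most of the 5' ends in libraries 2 and 3. Its 5' ends were 1.26%, 6.95% and 7.42% of tRNA-Thr counts in hypoxia, against 1.34%, 7.47% and 9.69% in normoxia. AGT alone had 3' ends without CCA at 3.30%, 1.97% and 2.26% in hypoxia, against 2.34%, 1.67% and 1.53% in normoxia, and CCA ends at 0.619%, 3.29% and 1.52%, against 0.786%, 3.25% and 3.68%. The groups overlapped in each of these.

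Compared with all other nuclear mature tRNAs of the same library pooled by counts, tRNA-Thr fragments were richer in internal pieces and poorer in 5' ends. Internal fragments were 79.6 ± 3.28% of tRNA-Thr counts and 43.4 ± 9.16% of the counts of the other 30393 sequences (SD, n = 6 libraries). The difference was 36.2 percentage points, higher in 6 of 6 libraries (exact sign-flip permutation p = 0.03125, the smallest 6 libraries allow; adjusted over 4 classes, 0.0417). The 5' ends were 10.5 ± 2.07% of tRNA-Thr counts and 50.7 ± 10.1% of the others, a difference of -40.2 percentage points, lower in 6 of 6 libraries (exact sign-flip permutation p = 0.03125, adjusted 0.0417). The 3' ends without CCA were 4.64 ± 2.50% of tRNA-Thr counts and 1.34 ± 1.73% of the others, higher in 6 of 6 libraries (exact sign-flip permutation p = 0.03125, adjusted 0.0417). The CCA ends were 5.31 ± 2.50% and 4.58 ± 0.676%, higher in 3 of 6 libraries (exact sign-flip permutation p = 0.375, adjusted 0.375). These tests treat the 6 libraries as independent. With the libraries of one replicate number averaged (the replicate block), the 3 numbers allow no exact sign-flip permutation p under 0.25, and the adjusted p was 0.333 for 5' ends, internal fragments and 3' ends without CCA. Abundant families weigh most in the pool: tRNA-Ala held 1773335 and tRNA-Glu 1476923 of its 8256636 counts. Class shares were not compared family by family, so the difference may not set tRNA-Thr apart from each of them. This compares tRNA-Thr with the pool within libraries and is no test of hypoxia.

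That contrast belongs to the abundant fragments. When each distinct sequence was counted once, tRNA-Thr differed from the other tRNAs by -6.89 percentage points in the internal share (exact sign-flip permutation, adjusted p = 0.0625) and by 0.785 in the 5' share (adjusted p = 0.281). Without both libraries numbered 1, the differences by counts were 40.8 percentage points for internal fragments and -45.4 for 5' ends, where 4 libraries allow no unadjusted p under 0.125.

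**Figure D2:**
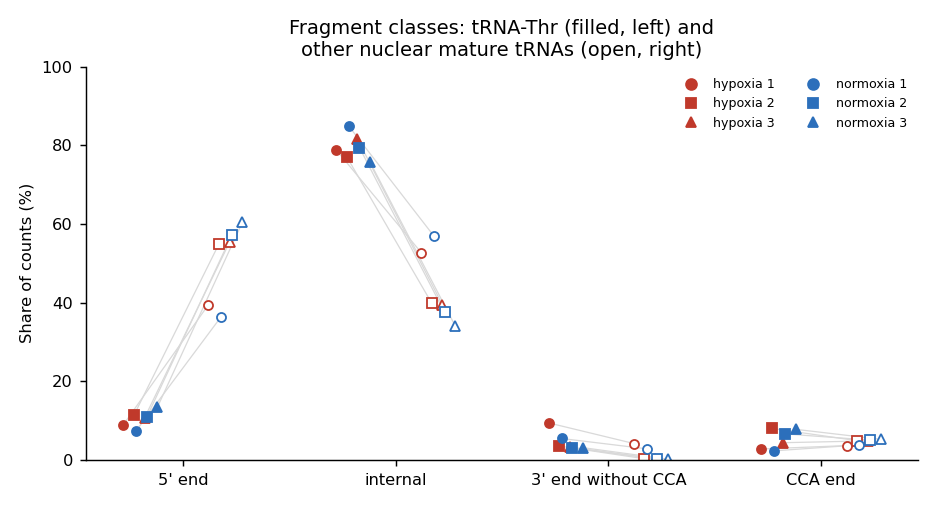
Share of counts (%) in each fragment class for tRNA-Thr (filled, left) and for all other nuclear mature tRNAs (open, right), with grey lines joining the values of one library, hypoxia in red and normoxia in blue. In 6 of 6 libraries tRNA-Thr lies lower for 5' ends and higher for internal fragments and for 3' ends without CCA.

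tRNA-Thr fragments were mostly short. Lengths of 15 to 17 nt took 49.9%, 71.7% and 73.7% of tRNA-Thr counts in hypoxia libraries 1 to 3, against 54.5%, 71.1% and 71.8% in normoxia. Lengths of 30 nt and longer took 12.0%, 4.07% and 2.62% in hypoxia, against 8.57%, 4.32% and 2.98% in normoxia. The libraries numbered 1 had fewer of the short and more of the long fragments in both groups, and the groups overlapped in both length bands. A smaller peak at 22 nt took 7.52%, 3.19% and 3.64% in hypoxia, against 8.84%, 3.26% and 3.91% in normoxia.

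Length depended on the class. Among 5' ends of tRNA-Thr, 0 to 1.65% of counts per library were 30 nt or longer, whereas among 5' ends of the other nuclear mature tRNAs 15.1 to 24.8% were. The share was lower for tRNA-Thr in 6 of 6 libraries. CCA ends of tRNA-Thr were all 15 to 20 nt. The 3' ends without CCA were the long class, with a median of 35 nt over counts and 53.0 to 86.9% of counts per library at 30 nt or more. The other nuclear tRNAs had 38.98 to 63.03% there, so the ranges overlapped. In tRNA-Thr, 35.9 to 80.8% of the 3' ends without CCA began at positions 35 to 39, in the anticodon or just after it, as the AGT and TGT 3' ends printed above do. That share was 39.5%, 66.7% and 49.1% in hypoxia libraries 1 to 3, against 35.9%, 80.8% and 64.8% in normoxia, and the groups overlapped.

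**Figure D3:**
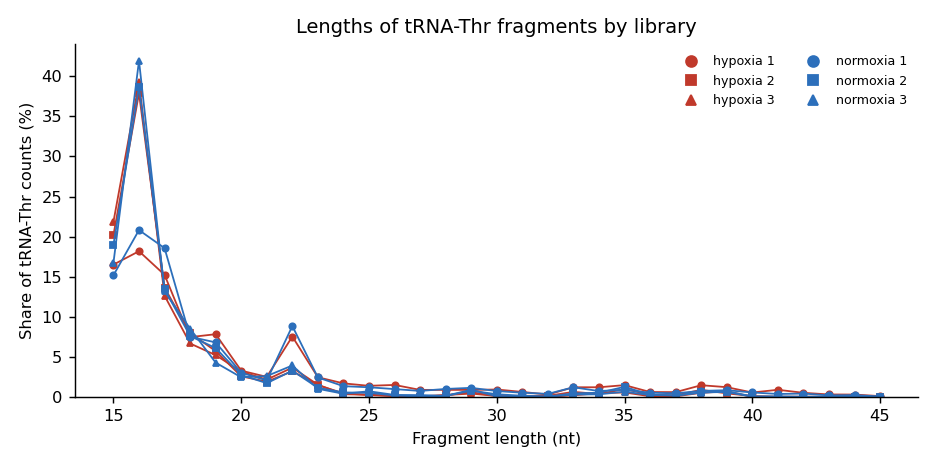
Share of tRNA-Thr counts (%) at each fragment length (nt) in each library, hypoxia in red and normoxia in blue. Libraries 2 and 3 of both groups peak at 16 nt, and the libraries numbered 1 are lower at 16 nt and higher at 30 nt and longer.

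Placed by position, the family was dominated by a block from the anticodon stem to the T loop. Fragments starting at position 41 or 42 and ending at 56 or 57 were 28.9%, 46.8% and 51.0% of tRNA-Thr counts in hypoxia libraries 1 to 3, against 36.3%, 47.6% and 47.4% in normoxia. Those starting at 34 to 40 and ending at 56 or 57 added 14.0%, 8.95% and 8.25% in hypoxia and 15.5%, 8.74% and 8.08% in normoxia. Starts and ends were both concentrated in a few positions. Position 56 lay in 73.5%, 67.2% and 69.9% of placed counts in hypoxia, against 77.5%, 69.2% and 66.1% in normoxia. Position 58, an adenine in every joined form and the base known to carry 1-methyladenosine in most tRNAs, lay in 30.4%, 10.7% and 9.86% in hypoxia, against 23.9%, 11.8% and 10.04% in normoxia. Coverage thus dropped across position 57 in all 6 libraries, and the groups overlapped at position 58. The modification itself was not measured.

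The CCA ends lay on the far side of the same position. Of the fragments ending at 76, 66.4%, 98.8% and 95.2% began at position 59 or later in hypoxia libraries 1 to 3, against 66.9%, 96.96% and 98.8% in normoxia. Position 59 or 60 was the usual first base, as in atcccagcggggcctCCA and tctcgctggggcctCCA. A CCA fragment that starts after position 62 would be under 15 nt and is outside the table's lengths. In the libraries numbered 1, starts at 57 took 20.5% of CCA ends in hypoxia and 19.2% in normoxia, against 0.289% and 1.59% in hypoxia libraries 2 and 3 and 1.37% and 0.288% in normoxia libraries 2 and 3.

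**Figure D4:**
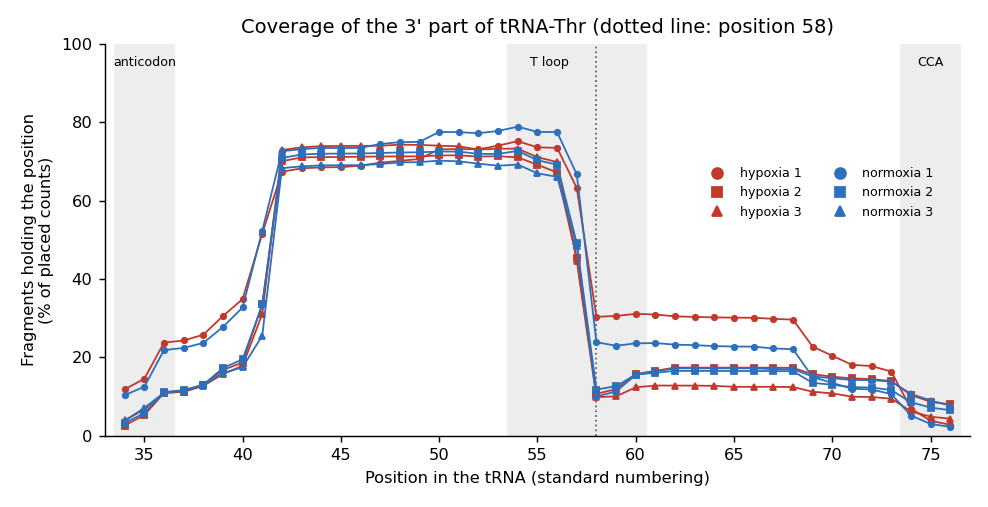
Share of placed tRNA-Thr counts (%) whose fragment holds each position from 34 to 76, by library, hypoxia in red and normoxia in blue, with the anticodon, the T loop and the CCA tail shaded and a dotted line at position 58. Coverage is 66.1 to 77.5% at position 56 and 9.86 to 30.4% at position 58.

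Among the nuclear families of the table, tRNA-Thr had the highest median share of fragments ending in the letters it carries up to positions 56 and 57. Fragments whose last letters were GTTC, or GTTC followed by G or A, were a median of 56.96% of tRNA-Thr counts over the 6 libraries (range 47.3 to 60.45%). The next families were tRNA-Arg with a median of 39.95% (23.7 to 46.1%) and tRNA-Phe with 15.7% (9.12 to 22.3%), and all other nuclear mature tRNAs together had 3.08% (2.41 to 10.1%). The ranges of tRNA-Thr and tRNA-Arg did not overlap, while that of tRNA-Ile reached 56.2%. This is a description over families that share libraries and depth. Only letters were matched, since positions were not placed for the other families. Stops at the same positions in a tRNA with other letters there are not counted.

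Within the T loop, the share of fragments ending at position 57 did not overlap between the groups, while their level did. Ends at position 57 were 34.96%, 34.85% and 35.08% of tRNA-Thr counts in hypoxia libraries 1 to 3, against 44.2%, 37.5% and 38.95% in normoxia. Ends at position 55 were 1.35%, 2.36% and 1.56% in hypoxia, against 0.891%, 1.29% and 0.977% in normoxia. The groups did not overlap at either position, lower in hypoxia at 57 and higher at 55. As levels, ends at 57 were 5643, 1765 and 1479 CPM in hypoxia, against 7645, 1699.8 and 2153 CPM in normoxia, with overlap and hypoxia lower in 2 of 3 replicate numbers (exact permutation p = 0.6). Of the 9 end positions with at least 1% of the counts, the shares did not overlap at 2 (22.2%). Positions were not placed for the other families, so this share has no background. With ends taken as the last 6 letters, which can be read for every family, shares did not overlap for 1 of 16 such ends of tRNA-Thr (6.25%), against 12 of 293 (4.1%) in the other 21 nuclear families with at least 50 counts in every library. By that different measure tRNA-Thr lay near the other families, which is no result about tRNA-Thr. For each of the 2 positions, the exact two-sided permutation p was 0.1, the smallest the design allows and not adjusted over the 9. Groups of 3 that do not overlap always give this value, so the p adds nothing to the lack of overlap. Ends at position 56 were 12.2%, 22.1% and 25.4% in hypoxia, against 11.8%, 20.2% and 18.02% in normoxia, and the groups overlapped.

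The ratio of the neighbouring ends 57 and 56 was followed in one body, a comparison chosen after its values were seen and given with no test. For fragments starting at 42 in CGT, gaagatcgcgggTTCG made up 64.6%, 67.1% and 64.2% of itself plus gaagatcgcgggTTC in hypoxia libraries 1 to 3, against 71.5%, 71.5% and 73.7% in normoxia. Hypoxia was lower and the groups did not overlap. The 95% Wilson intervals were 61.8 to 67.4, 65.6 to 68.5 and 62.3 to 66.0% in hypoxia and 68.7 to 74.2, 69.9 to 73.01 and 72.2 to 75.1% in normoxia, and cover counting error only, since reads carried no molecular identifiers. The body shared by the 3 anticodons did not separate the groups: aggagatcctgggTTCG over its form without the last base was 86.2%, 42.2% and 42.4% in hypoxia, against 89.7%, 49.5% and 39.8% in normoxia. Over all tRNA-Thr, the share of 57 among ends at 56 and 57 was 74.2%, 61.2% and 58.02% in hypoxia, against 78.9%, 64.9% and 68.4% in normoxia, lower in 3 of 3 replicate numbers with overlap between the groups. By the same letters, 5 of 18 families with at least 50 such counts in every library, tRNA-Thr among them, were lower in 3 of 3 replicate numbers, and in 0 of 18 did the groups separate.

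The 74 nt AGT form was found with T or G at position 69 (T69G, the printed form's base, the position and the other form's base). The T form made up 93.4%, 94.9% and 98.8% of AGT fragments ending at 73 in hypoxia libraries 1 to 3, against 97.01%, 94.6% and 90.6% in normoxia. Among AGT fragments with the full CCA tail it made up 9.80%, 20.4% and 9.17% in hypoxia, against 2.33%, 16.3% and 16.4% in normoxia. The balance of the forms thus turned over between 3' ends without and with CCA in all 6 libraries, while the hypoxia and normoxia groups overlapped at both ends. Fragments ending at 74, after the first tail base, were 93.1 to 100% T form, and those ending at 75 were 30.8%, 90.9% and 86.7% T form in hypoxia, against 22.2%, 82.5% and 34.1% in normoxia. The deposited annotation sets these ends at 74 and 75 among the internal fragments. The 72 nt CGT form likewise had a second form (G49A), which was 7.77%, 3.39% and 2.86% of the counts that tell them apart in hypoxia libraries 1 to 3, against 6.71%, 2.78% and 2.13% in normoxia. It was higher in hypoxia in 3 of 3 replicate numbers, and the groups overlapped.

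Single fragments were tested with edgeR's quasi-likelihood test over the whole table, and 113 of the 1322 tRNA-Thr sequences, with 83.2% of the family's counts, passed its filter on low counts. Of these, 0 were called higher and 0 lower at a Benjamini-Hochberg adjusted p under 0.05, against a background of 0% higher and 0% lower among all 6452 tested sequences. At an unadjusted p under 0.05, 0 tRNA-Thr fragments were higher and 0 lower, against 0.279% and 0.418% of all tested sequences. DESeq2 and limma voom called 0 in each direction, against 0% of the table, and had 0 tRNA-Thr fragments under an unadjusted p of 0.05. The table's shares there were 0.527% higher and 0.775% lower by DESeq2, and 0.868% and 0.821% by limma voom. With the replicate number as a term in the model (the replicate block), edgeR called 0 tRNA-Thr fragments higher and 0 lower, against 0.0775% in each direction over the table. At an unadjusted p under 0.05 it had 0 higher, against 3.41%, and 2 lower, against 2.98%. The common dispersion, edgeR's measure of the spread between libraries, was 0.706 with group only and 0.213 with the replicate block. At such a spread the group-only fit could call little in the whole table, so its 0 calls do not show that tRNA-Thr fragments were unchanged. The median log2 change was -0.10 over the 113 and 0.02 over all tested sequences, with 51 of the 113 above 0 and 62 below. Without hypoxia library 2 or 3, or normoxia library 1 or 3, the median of the tRNA-Thr fragments that then passed the filter was 0.21, 0.28, 0.24 and 0.04. By class, the median was -0.14 over 13 5' ends, -0.09 over 80 internal fragments, 0.24 over 10 3' ends without CCA and -0.23 over 10 CCA ends.

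**Figure D5:**
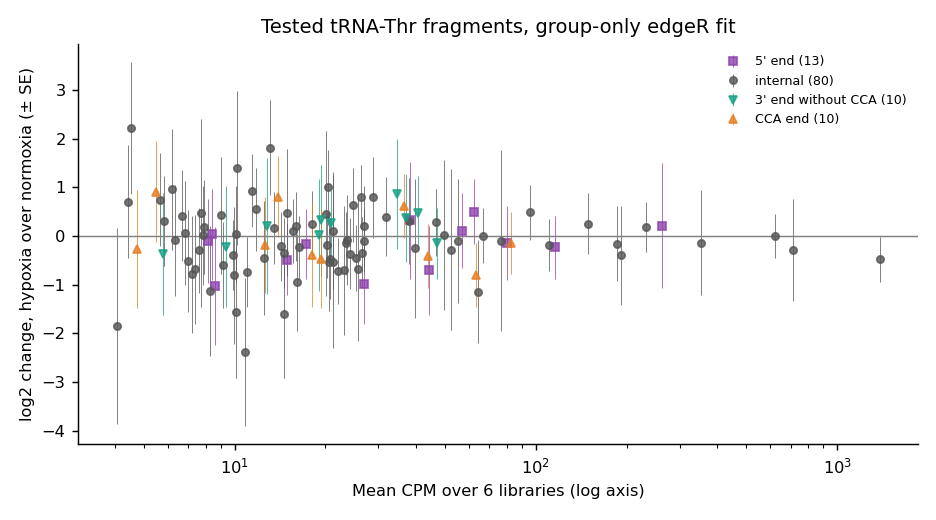
Log2 change, hypoxia over normoxia (edgeR, groups only), of each of the 113 tested tRNA-Thr fragments against its mean CPM over 6 libraries (log axis). Colours and shapes mark the class, and bars give the standard error, derived from the change and its F statistic. The changes lie between -2.38 and 2.22, and the outermost are fragments of low abundance with wide errors.

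Replicate order gave the same picture. Hypoxia was above normoxia in all 3 replicate numbers for 14 of the 113 fragments (12.4%), against 15% of all tested sequences, and below in all 3 for 19 (16.8%), against 13.4%. The groups did not overlap for 0 of 113 with hypoxia higher, against 2.32% of the table, and for 2 with hypoxia lower (1.77%), against 2.51%. These shares lie near those of the whole table.

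The most abundant fragment, gaagatcgcgggTTCG, was 1375, 1082 and 994 CPM in hypoxia libraries 1 to 3, against 2225, 1069 and 1595 CPM in normoxia. Its groups overlapped through the libraries numbered 2, and the log2 change was -0.48 ± 0.47 (SE; edgeR, adjusted p = 1). Its shorter form gaagatcgcgggTTC was 752, 532 and 555 CPM in hypoxia, against 886, 426 and 569 CPM in normoxia, a log2 change within 0.01 of 0 with an SE of 0.46. The shared aggagatcctgggTTCG was 1497, 212 and 155 CPM in hypoxia, against 2062, 225 and 125 CPM in normoxia, a log2 change of -0.29 ± 1.05 (SE). Its spread lay between the libraries numbered 1 and the others, not between the groups.

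Among the 5' ends, which hold the acceptor stem's first strand, ggctccatagctcagg (TGT) was 74.4, 126 and 121 CPM in hypoxia libraries 1 to 3, against 93.7, 110.5 and 169 CPM in normoxia. The longer ggctccatagctcagggg was 66.6, 92.1 and 81.1 CPM in hypoxia, against 30.2, 86.1 and 126 CPM in normoxia. Both overlapped between the groups, with log2 changes of -0.23 ± 0.65 and -0.14 ± 0.76 (SE). A related 5' end with other first bases, ggccctatagctcagg, was 11.8, 28.9 and 15.2 CPM in hypoxia, against 18.1, 30.7 and 57.1 CPM in normoxia (log2 change -0.98 ± 0.82, SE). It was lower in 3 of 3 replicate numbers, and the groups overlapped.

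Of the CCA ends, atcccagcggggcctCCA (AGT) was 50.9, 69.04 and 22.8 CPM in hypoxia libraries 1 to 3, against 69.5, 73.5 and 94.5 CPM in normoxia. It was lower in hypoxia without overlap, by counts of 26, 177 and 39 in hypoxia and 23, 163 and 154 in normoxia. The gap, 69.04 CPM in hypoxia library 2 against 69.5 CPM in normoxia library 1, was less than 1 count of that normoxia library (3.02 CPM). Its log2 change was -0.80 ± 0.66 (SE; edgeR, adjusted p = 1), or -0.86 ± 0.46 with the replicate block (edgeR, adjusted p = 0.828). The form without the last base, atcccagcggggcctcc, was 23.5, 1.95 and 0.583 CPM in hypoxia, against 30.2, 2.71 and 28.2 CPM in normoxia. The gap of that form lay in the libraries numbered 3. The TGT counterpart tctcgctggggcctCCA was 56.8, 119 and 60.1 CPM in hypoxia, against 78.6, 83.9 and 99.4 CPM in normoxia, and the groups overlapped. The other fragment without overlap, picked out after its values were seen, was the TGT fragment gctccatagctcagg, which starts at the tRNA's second base. It was 11.8, 21.5 and 16.3 CPM in hypoxia, against 24.2, 30.7 and 27.6 CPM in normoxia (log2 change -0.72 ± 0.68, SE; edgeR, adjusted p = 1). Here too the gap, 21.5 against 24.2 CPM, was less than 1 count of normoxia library 1.

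Of the 3' ends without CCA, the long TGT fragment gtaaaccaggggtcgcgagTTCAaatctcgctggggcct was 92.1, 19.1 and 23.3 CPM in hypoxia libraries 1 to 3, against 90.7, 24.8 and 31.3 CPM in normoxia. The form that starts 1 base later, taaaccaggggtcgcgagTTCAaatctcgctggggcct, was 99.9, 23.8 and 6.42 CPM in hypoxia, against 63.5, 10.4 and 3.07 CPM in normoxia. The later start was higher in hypoxia in 3 of 3 replicate numbers, and both overlapped between the groups. The AGT fragment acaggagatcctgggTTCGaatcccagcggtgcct was 94.0, 35.5 and 15.8 CPM in hypoxia, against 51.4, 35.6 and 11.7 CPM in normoxia. The log2 changes of these fragments were -0.15 ± 0.72, 0.87 ± 1.13 and 0.48 ± 0.76 (SE).

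The 2 fragments under an unadjusted p of 0.05 with the replicate block were of TGT and CGT. TTCAaatctcgctgg (TGT), which starts at the T loop's first base and spans position 58, had 53, 36 and 9 counts in hypoxia libraries 1 to 3, against 64, 96 and 41 counts in normoxia. In CPM these were 104, 14.0 and 5.25 in hypoxia, against 193, 43.3 and 25.2 in normoxia. The fragment was lower in 3 of 3 replicate numbers, by a log2 change of -1.54 ± 0.47 with the block (SE; edgeR, adjusted p = 0.339), and the groups overlapped. taaaccgaagatcacgggTTCG, of the second CGT form, which starts at the last base of the anticodon, had 6, 0 and 1 counts in hypoxia, against 13, 10 and 14 counts in normoxia (edgeR with the block, adjusted p = 0.629). A count of 0 in hypoxia library 2 allows up to 1.17 CPM. On the other side, tccatagctcagggg (TGT) had 22, 27 and 12 counts in hypoxia, against 4, 10 and 2 counts in normoxia, a log2 change of 1.82 ± 0.97 (SE; edgeR, adjusted p = 1). It was higher in 3 of 3 replicate numbers, and the groups overlapped in CPM.

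The nuclear families whose summed CPM profile over the 6 libraries was most like that of tRNA-Thr were tRNA-Met (elongator), tRNA-Pro and tRNA-Arg, with Pearson correlations on the log2 scale of 0.990, 0.970 and 0.967. tRNA-Met was 10268, 3385 and 3376 CPM in hypoxia libraries 1 to 3, against 10554, 3843 and 3855 CPM in normoxia. The points are shares of the same libraries, and both libraries numbered 1 lie far above the rest, so that these values rest on them.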

How the data were processed

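Small RNA was measured by Pandora-seq in 3 hypoxia and 3 normoxia libraries. The authors deposited a table of whole-number counts per fragment sequence with its tRNA annotation; these counts were used unscaled. The genome build is mm10, per the submitters' processing notes. The software that aligned and annotated the reads is not given in the sources used here. Members and all lists were chosen with earlier results of these data known. CPM were formed over all counts of the table. The edgeR 4.0.16 quasi-likelihood fit used group only, TMM scaling and filterByExpr over the whole table, with Benjamini-Hochberg adjustment. DESeq2 1.42.0 and limma 3.58.1 (voom) were alternatives. The SE of an edgeR log2 change was derived as the change's size over the square root of its F statistic. The edgeR fit was also run on simulated data, where the dispersion between libraries was set below the 0.706 of these data. That run therefore does not show what the fit could find here. Sums and shares were compared by exact permutation, enumerated in Python 3.11.15 with NumPy 2.4.6. SciPy 1.17.1 gave the Wilson intervals. The tRNAs were joined from fragments that share 15-letter words. Deviations from the group means of same-numbered libraries correlated at 0.810, 0.533 and 0.451 over sequences. With replicates 2 and 3 alone this value was -0.0281, so the data do not show that numbers 2 and 3 pair the samples. No label says so either. The replicate block was therefore an alternative to the group-only fit, and comparisons by replicate number are descriptions. Named fragments were those passing the adjusted threshold, the 3 most abundant in each class and the first of each anticodon set, and the 4 with the smallest unadjusted p in each direction, with and without the replicate block; a fragment whose groups did not overlap was added afterwards. Alternatives covered scaling, filter, tool, pairing, comparator and left-out libraries; for sums and shares, the set without the libraries numbered 1, and for class shares the replicate block, were added after seeing the data. Intervals and limits from a count of 0 (3 counts) cover counting error only. Mitochondrial and precursor fragments were used only in totals and tests over the whole table.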

Additional observations from a re-analysis of the deposited data

How the results depend on the processing

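Calls of single tRNA-Thr fragments were 0 in both directions under every scaling, filter, tool, block and left-out library run, with a lowest adjusted p of 0.339 (replicate block). The log2 ratios of sums, hypoxia over normoxia, ranged without 1 library from -0.98 to 0.75 for all tRNA-Thr, -0.70 to 0.42 for 5' ends, -1.03 to 0.78 for internal fragments, -1.41 to 1.96 for 3' ends without CCA and -0.35 to 0.18 for CCA ends. By anticodon set they ranged from -0.73 to 0.31 (CGT), -0.75 to 0.66 (TGT), -1.42 to 1.34 (AGT/CGT/TGT), -1.24 to 1.17 (AGT), -2.50 to 2.82 (AGT/CGT), -0.91 to 0.86 (CGT/TGT) and, over 5 libraries left out in turn, -1.89 to -0.89 (AGT/TGT). The last set gave no ratio without hypoxia replicate 1, as hypoxia replicates 2 and 3 were at 0, and none with the replicate block. With the replicate block, the sign turned for TGT (-0.0296), AGT (-0.0636) and CGT/TGT (-0.0215) against 0.05, 0.11 and 0.11 without it; no other sum with a value changed sign, and no call on hypoxia changed. With replicates 2 and 3 alone it turned for TGT (-0.14), AGT (-0.18), CGT/TGT (-0.15) and AGT/CGT/TGT (0.13). The class differences from other nuclear tRNAs ranged without 1 library from -42.4 to -38.8 (5' ends), 34.97 to 38.2 (internal), 2.92 to 3.44 (3' ends without CCA) and 0.255 to 1.18 (CCA ends) percentage points, where 5 libraries allow no p under 0.0625. With replicates 2 and 3 alone they were -45.4, 40.8 and 2.99 for the first 3, and with the replicate block -40.2, 36.2 and 3.30 (adjusted p = 0.333 for each). By distinct sequences they were 0.785, -6.89 and 4.54, and against all other counts the CCA difference was -0.00759. Single fragments that changed sign were gaagatcgcgggTTC (batch term 0.0018, voom 0.0091, no filter 0.0845, block 0.0122, replicates 2 and 3 alone 0.0877), ggctccatagctcagggg (batch term 0.0494, library size 0.0093, voom 0.0621, block 0.0779), tgggTTCGaatcccagcgg (voom 0.51, no filter 0.0325), aggagatcctgggTTCG (0.0260) and atcccagtggggcctCCA (-0.0260), the last 2 with replicates 2 and 3 alone. Without 1 library, fits of named fragments that changed sign ranged from -1.55 to 1.30 (aggagatcctgggTTCG), -0.0961 to 0.21 (gaagatcgcgggTTC), -1.84 to 2.26 (ggctccgtggcttag), -0.54 to 0.28 (ggctccatagctcagg), -0.59 to 0.41 (ggctccatagctcagggg), -3.84 to 3.36 (tgggTTCGaatcccagcgg), -4.13 to 1.91 (tcctgggTTCGaatcccagcgg), -0.81 to 0.22 (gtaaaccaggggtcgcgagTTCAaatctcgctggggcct), -0.94 to 0.15 (tcccagcggggcctCCA), -0.0473 to 0.87 (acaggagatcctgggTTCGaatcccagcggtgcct), -0.14 to 2.15 (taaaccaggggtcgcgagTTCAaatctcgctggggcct), -3.73 to 0.92 (taaaccgaagatcgcgggTTCG) and -0.75 to 0.18 (tctcgctggggcctCCA). The cause of these changes was not tested. The unfiltered fit moved the median of all sequences to 0.23 and that of tRNA-Thr to 0.41, against -0.10 with the filter. At 0.390 to 3.02 CPM per count, 1209 of the 1322 sequences did not pass the filter on low counts.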
